A study of Mus musculus with 2 samples.

Results

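*Barx1*, *Isl1*, *Nkx6-1*, *Six2*, *Nkx3-2*, *Hand1*, *Hand2*, *Meis1* and *Meis2* are genes for transcription factors of the developing gut wall, and their levels are described here in mesenchymal cells of the mouse esophagus, gastro-esophageal squamocolumnar junction (GE-SCJ) and stomach. These 9 genes of the 19550 in the count matrix were chosen by name, as homeobox and Hand factors known from stomach mesenchyme. *Barx1*, *Isl1* and *Nkx6-1* were also chosen because an earlier look at these data had shown them to differ between regions, so their regional differences are a description. Cells were dissociated from wild-type C57BL/6 mice at embryonic day 15 (E15), embryonic day 19 (E19), 2 days after birth (pup) and 8 weeks (adult), tagged by region and stage, and sequenced as 1 pooled 10x Genomics library. By the labels, E15 cells came from 6 mice, E19 cells from 2, pup cells from 2 and adult cells from 3, while the methods speak of 3 combined mice. Mice were pooled under each tag and cells carry no mouse label, so each region and stage is 1 sample, no difference was tested, and the intervals in parentheses cover counting error only. Of the 12 region and stage groups, the adult stomach is not analysed here.

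Homeobox genes encode proteins that bind DNA through a homeodomain and help to give each stretch of an embryonic tissue its regional identity. In the foregut, mesenchyme carrying BARX1 is known to direct the overlying epithelium towards a stomach fate by damping WNT signals, and ISL1, SIX2 and NKX3-2 are known from the mesenchyme of the hindstomach and the pylorus. HAND1 and HAND2 are basic helix-loop-helix factors of heart, limb and gut, and HAND2 is also needed by enteric neurons. MEIS1 and MEIS2 are homeodomain cofactors that join PBX and HOX proteins on DNA. NKX6-1 is best known from pancreatic beta cells and motor neurons.

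The mesenchyme was read from the authors' labels Stromal (3442 cells), Smooth Muscle (1027) and Stromal-2 (139), together 4608 of 7808 cells. Levels are given in CPM, which is a gene's share of the unique molecular identifiers (UMIs) that the cells of one label, region and stage hold together, scaled to 1000000, with an exact 95% Poisson interval. In the 10 Stromal groups with at least 20 cells, there were 31 to 739 cells with median depths of 3859 to 10573 UMIs, and in the 10 Smooth Muscle groups 22 to 190 cells with 4418 to 13329 UMIs. Stromal cells carried the fibroblast genes *Col1a1* (6885 CPM) and *Dcn* (3447 CPM), and Smooth Muscle cells carried *Acta2* (12616 CPM) and *Myh11* (3738 CPM), as their names say. Stromal-2 cells instead carried the mesothelial genes *Upk3b* (864 CPM), *Krt19* (719 CPM) and *Wt1* (388 CPM), none of which passed 44.0 CPM in the other mesenchymal labels. Immune cells (354 cells, median depth 8266.5 UMIs) should lack most of these genes, and their level was taken as background from free RNA. A cell with a UMI of a defining gene of another class made up 17.1% to 38.7% of each Stromal or Smooth Muscle group. In the Stromal-2 groups described below, the share was higher, at 45.7% in the E19 GE-SCJ and 74.1% in the pup stomach. Log2 ratios were computed from the sums with 1 UMI added to each, for all genes with at least 20 UMIs over both groups, and a gene is called past 2-fold where the ratio was at least 1 either way.

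The name stomach mesenchyme factor suited some of the genes and not others. *Barx1*, *Isl1*, *Six2* and *Hand2* were higher in stomach than in esophageal Stromal cells at all stages compared. *Nkx6-1* ran the other way and was higher in the esophagus. *Meis1* and *Meis2* were present in the mesenchyme of every region, and *Nkx3-2* and *Hand1* were almost without UMIs. Outside the mesenchyme, *Hand2* was abundant in cells labelled Neural and *Isl1* was seen in part of the columnar epithelium.

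The sequences around the transcript starts are printed for the genes that separate stomach from esophageal stroma, as the control regions next to the genes whose levels follow. They were taken from RefSeq on the build GRCm38.p6, with 250 bases before and 50 after the start, and 8 of the 9 genes had an entry; *Hand1* is named only. Capitals mark the first transcribed base, at position 251, and every match to the motifs TGACAG (MEIS type), CATCTG (a Hand E-box), TAATTA (homeodomain) and TAAGTG (NKX type), searched on both strands. The windows lie at chr13:48662786-48663085 on the plus strand (*Barx1*), chr13:116309639-116309938 on the minus strand (*Isl1*), chr17:85688205-85688504 on the minus strand (*Six2*), chr8:57320733-57321032 on the plus strand (*Hand2*) and chr5:101664662-101664961 on the minus strand (*Nkx6-1*).
Barx1: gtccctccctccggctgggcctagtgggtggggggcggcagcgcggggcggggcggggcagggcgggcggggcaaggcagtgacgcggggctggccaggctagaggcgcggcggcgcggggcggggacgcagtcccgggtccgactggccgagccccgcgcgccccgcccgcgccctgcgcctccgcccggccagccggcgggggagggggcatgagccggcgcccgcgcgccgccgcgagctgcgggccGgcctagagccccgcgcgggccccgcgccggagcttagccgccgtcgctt
Isl1: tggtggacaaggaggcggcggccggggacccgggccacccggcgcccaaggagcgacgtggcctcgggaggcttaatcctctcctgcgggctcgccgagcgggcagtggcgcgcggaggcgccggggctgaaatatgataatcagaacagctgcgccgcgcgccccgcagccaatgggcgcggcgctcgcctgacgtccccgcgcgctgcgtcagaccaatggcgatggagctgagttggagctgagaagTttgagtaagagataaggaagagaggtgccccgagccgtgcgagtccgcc
Six2: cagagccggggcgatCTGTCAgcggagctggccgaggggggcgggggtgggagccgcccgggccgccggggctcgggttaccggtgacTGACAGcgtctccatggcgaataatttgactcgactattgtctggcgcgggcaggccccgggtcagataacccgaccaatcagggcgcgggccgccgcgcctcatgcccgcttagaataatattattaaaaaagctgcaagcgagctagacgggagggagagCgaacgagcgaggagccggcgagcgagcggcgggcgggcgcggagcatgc
Hand2: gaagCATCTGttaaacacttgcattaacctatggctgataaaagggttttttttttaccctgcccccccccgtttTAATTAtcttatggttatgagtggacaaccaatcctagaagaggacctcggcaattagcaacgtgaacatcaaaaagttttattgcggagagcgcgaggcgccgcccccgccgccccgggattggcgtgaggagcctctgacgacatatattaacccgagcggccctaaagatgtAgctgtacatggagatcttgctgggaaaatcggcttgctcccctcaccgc
Nkx6-1: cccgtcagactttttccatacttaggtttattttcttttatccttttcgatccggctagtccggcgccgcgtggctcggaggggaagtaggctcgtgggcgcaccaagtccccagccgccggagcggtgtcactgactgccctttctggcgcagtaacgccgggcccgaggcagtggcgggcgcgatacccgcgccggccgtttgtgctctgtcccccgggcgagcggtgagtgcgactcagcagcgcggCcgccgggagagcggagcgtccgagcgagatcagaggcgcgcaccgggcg
The *Barx1* window was 84.7% G and C with 50 CpG pairs, against a median of 52.7% and 7 pairs over all 32851 promoters of the table. *Isl1* (69.0%, 37 pairs), *Six2* (67.3%, 37 pairs) and *Nkx6-1* (67.3%, 40 pairs) also lay above that median, while *Hand2* was at 50.3% with 17 pairs. TGACAG or its reverse complement CTGTCA stood in the *Six2* window at 2 places, starting 235 and 162 bases before the start, and such a match is found in 19.2% of all promoters. The *Hand2* window held CATCTG 246 bases before the start (17.2% of promoters have it in either direction) and TAATTA 175 bases before it (5.29%). Among windows not printed, *Nkx3-2* held CTGTCA 243 bases before the start and a CATCTG match 34 bases after it, and *Meis2* held a match to TAAGTG 164 bases before it (9.20% of promoters). No match to these motifs was found in the *Barx1*, *Isl1*, *Nkx6-1* and *Meis1* windows.

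*Barx1* (chromosome 13, 48662998 to 48666507, plus strand; GENCODE M21 on GRCm38) was high in stomach and GE-SCJ mesenchyme at every stage measured there. In Stromal cells of the stomach it stood at 576 CPM (552 to 601), 393 CPM (378 to 409) and 269 CPM (223 to 321) from E15 to pup, given in the order E15, E19 and pup here and in later sentences. GE-SCJ Stromal cells had 362 CPM (343 to 382), 330.1 CPM (315 to 345) and 208 CPM (166 to 259) at the same stages. Esophageal Stromal cells had 64.8 CPM (57.0 to 73.4), 40.1 CPM (35.6 to 45.1), 14.3 CPM (6.55 to 27.2) and, in the adult, 37.1 CPM (13.6 to 80.8). Among groups of at least 20 cells, stomach and GE-SCJ values thus lay above every esophageal value, with a gap between 208 CPM and 64.8 CPM that no interval crossed. A UMI of *Barx1* was found in 95.3% (92.5 to 97.2) of E15 stomach Stromal cells and 40.1% of esophageal ones, and with each cell thinned to 3000 UMIs in 77.3% and 18.9%. The shares had similar median depths (9858 and 10573 UMIs) and left out 7 and 8 shallower cells. Immune cells were at 18.3 CPM with a UMI in 9.60% of cells (5.10% thinned), so the pup esophagus, with 5.96% (3.70% thinned), did not exceed background.

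In Smooth Muscle cells the *Barx1* pattern was the same. The stomach had 621 CPM (583 to 660), 581 CPM (548 to 616) and 437 CPM (384 to 496) from E15 to pup. GE-SCJ muscle had 457 CPM (426 to 490), 433 CPM (407 to 460) and 404 CPM (353 to 459). Esophageal muscle had 52.9 CPM (40.4 to 68.1), 8.65 CPM from 4 UMIs, 34.9 CPM from 4 UMIs and 40.8 CPM from 7 UMIs over the 4 stages. The 8.65 CPM at E19 did not exceed the 18.3 CPM of immune cells, so ratios against that group are over background. The stomach and GE-SCJ intervals did not overlap the esophageal ones at any of the 3 shared stages.

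*Isl1* (chromosome 13, 116298281 to 116309689, minus strand), a LIM homeodomain gene, was graded from stomach to esophagus. Stromal cells of the stomach had 203 CPM (189 to 218), 144 CPM (135 to 154) and 107 CPM (79.3 to 143) from E15 to pup. GE-SCJ Stromal cells had 106 CPM (95.5 to 116), 104 CPM (95.5 to 112) and 40.6 CPM (23.2 to 66.0). Esophageal Stromal cells had 10.2, 5.59 and 15.9 CPM, and no UMI in the adult, where 3 UMIs would have been 18.6 CPM. The esophageal levels lay around the 12.0 CPM of immune cells and were read as background. In muscle, the stomach had 226 CPM (204 to 250.4), 134 CPM (118 to 151) and 172 CPM (139 to 210.0), and the GE-SCJ had 77.4 CPM (64.8 to 91.6), 55.4 CPM (46.4 to 65.6) and 156 CPM (125 to 192). Esophageal muscle had 4, 2, 1 and 0 UMIs of *Isl1* at E15, E19, pup and adult. With each cell thinned to 3000 UMIs, *Isl1* was detected in 41.4% of E15 stomach Stromal cells (72.5% at own depth) and 2.38% of immune cells (7.91%).

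*Six2* (chromosome 17, 85684277 to 85688274, minus strand), a homeobox gene also known from kidney progenitors, had the largest step between stomach and GE-SCJ at E15 among the genes that were higher in the stomach. Stomach Stromal cells had 106 CPM (95.7 to 117), 62.2 CPM (56.3 to 68.5) and 69.4 CPM (47.2 to 98.5) from E15 to pup. GE-SCJ Stromal cells had only 21.8, 25.9 and 22.9 CPM, and esophageal ones 8.40, 10.9 and 6.37 CPM. The stomach thus stood highest at each stage. Stomach muscle had 141 CPM (123 to 160.3), 89.6 CPM (76.8 to 104) and 68.1 CPM (48.2 to 93.4), against 23.1, 28.5 and 24.6 CPM in GE-SCJ muscle. Esophageal muscle had 5 UMIs at E15, none at E19 and in the pup, and 1 in the adult. Immune cells were at 1.59 CPM.

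*Nkx6-1* (chromosome 5, 101658139 to 101664996, minus strand) showed the reverse order. Esophageal Stromal cells had 115 CPM (104 to 126), 99.2 CPM (91.9 to 107), 108 CPM (84.1 to 137) and 68.1 CPM (34.0 to 122) from E15 to adult. GE-SCJ Stromal cells had 19.6 CPM (15.4 to 24.6), 10.1 CPM (7.70 to 13.1) and 10.2 CPM, the last from 4 UMIs. Stomach Stromal cells had 14 UMIs at E15 (3.67 CPM), 21 at E19 (3.18 CPM) and none in 78 pup cells, where 3 UMIs would have been 6.72 CPM. Immune cells were at 1.59 CPM (0.585 to 3.47). That interval overlapped those of stomach Stromal cells at E15 (2.00 to 6.15) and E19 (1.97 to 4.86). The regions therefore stood in the opposite order to that of *Barx1*. Esophageal muscle had the gene at all 4 stages, with 191 CPM (167 to 219), 171 CPM (135 to 213), 139.6 CPM (79.8 to 227) and 216 CPM (152 to 298). It was found in 81.7% of E15 esophageal muscle cells, and in 45.7% after thinning, against 1.69% of immune cells (0.680% thinned). GE-SCJ muscle had 69.8 CPM (58.0 to 83.5), 65.8 CPM (55.9 to 76.8) and 12.3 CPM (4.94 to 25.3) at E15, E19 and pup. Stomach muscle had 13.9 CPM (8.82 to 20.9), 21.2 CPM (15.2 to 28.8) and no UMI.

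**Figure D1:**
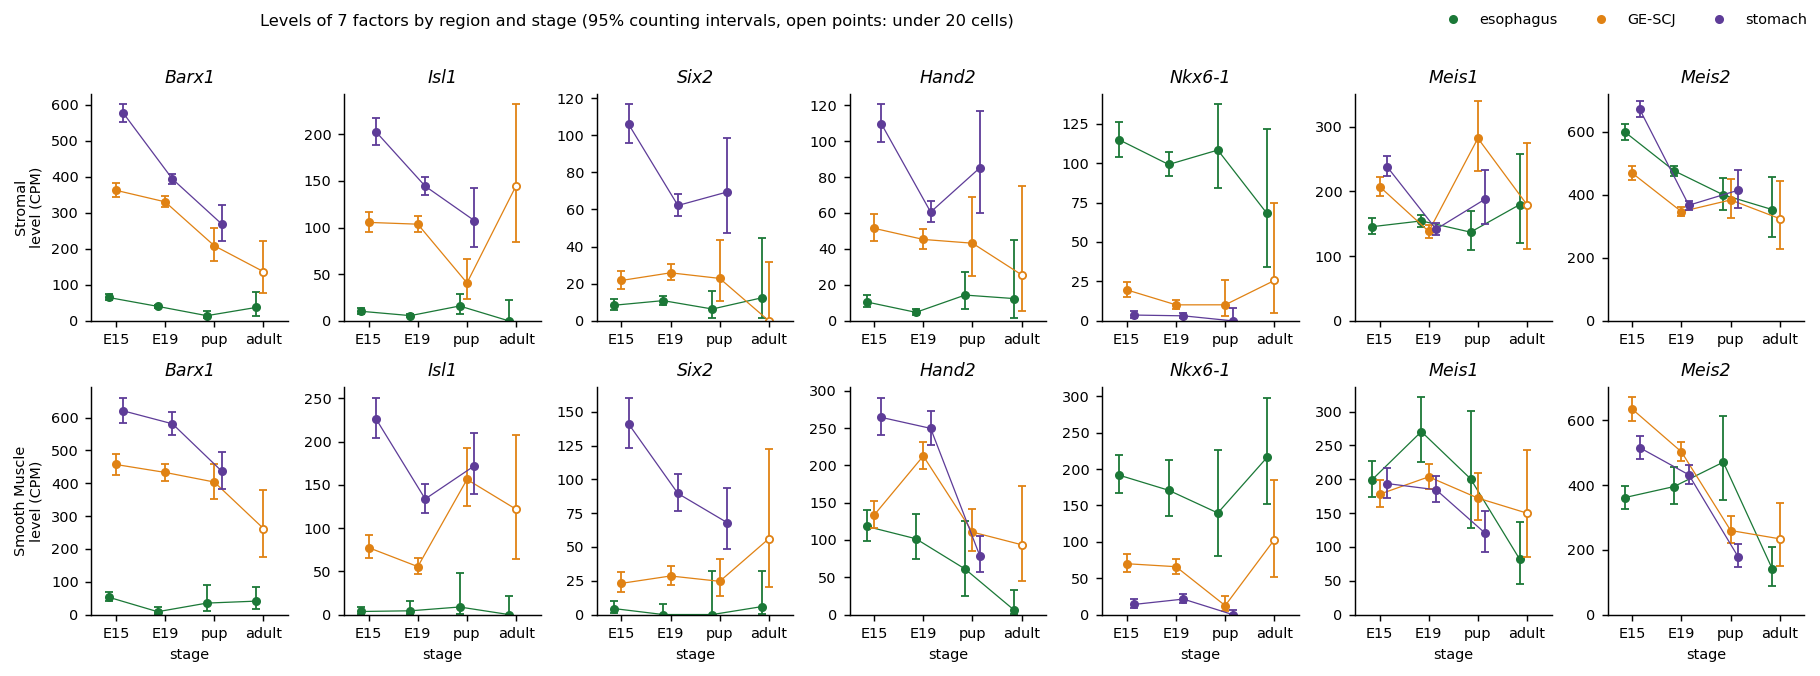
Levels (CPM) of the 7 detected genes by stage (x axis) in Stromal cells (top row) and Smooth Muscle cells (bottom row), coloured by region; vertical lines are exact 95% counting intervals and open points are groups with fewer than 20 cells. *Barx1* in stomach and GE-SCJ lay above all esophageal points at E15, E19 and pup in both labels, and *Nkx6-1* had its highest points in the esophagus at those stages.

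*Hand2* (chromosome 8, 57320983 to 57324633, plus strand) followed both the region and the cell type. In Stromal cells it had 109 CPM (99.2 to 120.5), 60.5 CPM (54.7 to 66.7) and 85.1 CPM (60.2 to 117) from E15 to pup in the stomach, 51.5, 45.3 and 43.2 CPM in the GE-SCJ, and 10.5, 4.73 and 14.3 CPM in the esophagus. Immune cells had 3.72 CPM (2.03 to 6.24), an interval that overlapped that of esophageal Stromal cells at E19 (3.25 to 6.64). Background therefore limits the size of ratios over that E19 level of *Hand2*. In muscle it was present in every region before birth, with 118 CPM (99.0 to 140.0) at E15 and 102 CPM (74.7 to 135) at E19 in the esophagus, 133 CPM (117 to 152) and 213 CPM (195 to 232) in the GE-SCJ, and 264 CPM (240.1 to 290.3) and 249.7 CPM (228 to 273) in the stomach. It was lower in pup muscle of the stomach, at 78.8 CPM (57.3 to 106), and a single UMI was counted in adult esophageal muscle. Of those 30 adult cells, 23 belonged to the authors' cluster 11, unlike most pup esophageal muscle cells. The part of the clusters in the adult *Hand2* value was not tested. Its gene overlaps the antisense gene *Hand2os1* (57281117 to 57324233, minus strand), and since the strand setting of the counting is not given in the sources used here, the pair could share reads.

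*Meis1* (chromosome 11, 18879817 to 19018985, minus strand) and *Meis2* (chromosome 2, 115863064 to 116065839, minus strand) stayed within 2-fold between stomach and esophagus in Stromal cells. *Meis1* in Stromal cells ran from 137 to 179 CPM in the esophagus, from 138 to 282 CPM in the GE-SCJ and from 142 to 238 CPM in the stomach. The E15 level of *Meis1* was higher in the stomach, at 238 CPM (223 to 254) against 145 CPM (134 to 158) in the esophagus, and in the pup the GE-SCJ was past 2-fold above the esophagus, at 282 against 137 CPM. *Meis2* in Stromal cells had 599 CPM (575 to 624) at E15 in the esophagus and 671 CPM (646 to 698) in the stomach, and 476 and 367 CPM at E19. In muscle *Meis2* had 635 CPM, 503 CPM and 259.8 CPM from E15 to pup at the GE-SCJ, and 516, 432 and 179 CPM in the stomach. All these values lay well above the immune cells, with 21.8 CPM of *Meis1* and 24.7 CPM of *Meis2*.

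*Nkx3-2* (chromosome 5, 41761483 to 41764501, minus strand) and *Hand1* (chromosome 11, 57828705 to 57832818, minus strand) could be followed at the E15 stomach alone. *Nkx3-2* had 9 UMIs in mesenchymal cells, all there, with 4 in Stromal (1.05 CPM) and 5 in Smooth Muscle cells (3.02 CPM), spread over 8 cells. *Hand1* had 6 UMIs, also all there, with 1 in a Stromal cell and 5 in 2 Smooth Muscle cells. At E19, 3 UMIs would have been 0.454 CPM in stomach Stromal and 1.55 CPM in stomach muscle cells, so higher levels than these would have been seen.

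Ranked over the 22 mesenchymal groups of at least 20 cells, most neighbours in the order of a gene had overlapping intervals. A step without overlap was judged between neighbouring ranks only, and a wider interval of another group can reach across it. For *Barx1* the 14 groups of stomach and GE-SCJ came first, and the 8 esophageal groups followed after the step from 208 to 64.8 CPM. For *Nkx6-1* the first 7 groups were all esophageal, and a step without overlap led from 99.2 CPM to the 69.8 CPM of E15 GE-SCJ muscle. That step did not part the regions. The interval of esophageal pup muscle above it (79.8 to 227) overlapped that of E15 GE-SCJ muscle (58.0 to 83.5). Adult esophageal Stromal cells stood below it, at 68.1 CPM (34.0 to 122). For *Six2*, E15 stomach muscle stood alone at the top, above E15 stomach Stromal cells. For *Hand2*, stomach muscle at E15 and E19 and GE-SCJ muscle at E19 formed the top 3, followed by a step from 213 to 133 CPM. For *Isl1* the stomach groups mixed with GE-SCJ groups, and the step from 104 to 77.4 CPM came after rank 10. Intervals crossed this step too. Those of E19 GE-SCJ Stromal-2 cells (84.1 to 144) and pup stomach Stromal cells (79.3 to 143) overlapped that of E15 GE-SCJ muscle (64.8 to 91.6).

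Stomach over esophagus in Stromal cells gave log2 ratios at E15 of 3.15 (2.96 to 3.34) for *Barx1*, 4.27 (3.81 to 4.77) for *Isl1*, 3.61 (3.10 to 4.17) for *Six2*, 3.35 (2.89 to 3.85) for *Hand2* and -4.87 (-5.72 to -4.13) for *Nkx6-1*. At E19 they were 3.29, 4.66, 2.50, 3.64 and -4.90 in the same order. The E19 esophageal level of *Hand2* and the E15 and E19 stomach levels of *Nkx6-1* overlapped those of immune cells. In the pup they were 4.09 (3.16 to 5.19), 2.65 (1.68 to 3.74), 3.17 (1.80 to 4.89) and 2.46 (1.43 to 3.62) for the first 4, and *Nkx6-1* was at least 16.1-fold lower, with no UMI in the stomach against 68 in the esophagus. *Meis1* (0.71, -0.12 and 0.46) and *Meis2* (0.16, -0.38 and 0.05) stayed within 2-fold. So at each stage 4 of 7 genes with enough UMIs were past 2-fold higher and 1 lower, where the background over all genes was 4.45% higher and 3.83% lower at E15 (of 12152 genes), 6.46% and 3.9% at E19, and 5.48% and 3.94% in the pup. Since the genes were chosen on this contrast, the counts are a description. The median ratio of the 7 genes was 3.15, 2.50 and 2.46, and that of all genes 0.11, 0.14 and 0.07. *Nkx3-2* and *Hand1* had too few UMIs for a ratio in any comparison.

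**Figure D2:**
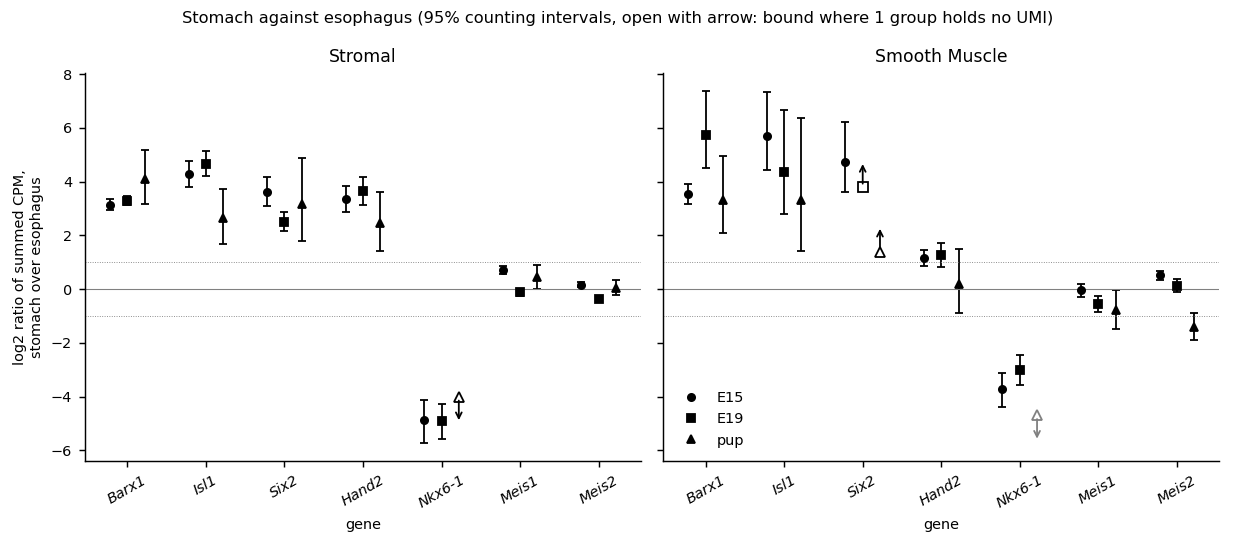
Log2 ratios of stomach over esophagus (y axis) for the genes on the x axis in Stromal (left) and Smooth Muscle cells (right). Circles are E15, squares E19 and triangles the pup. Lines are exact 95% counting intervals, and open points with arrows are folds with a group without UMIs set to 3 UMIs. Grey marks a ratio under the 20-UMI minimum, and dotted lines mark 2-fold. *Barx1*, *Isl1* and *Six2* lay above the upper dotted line at all 3 stages in both labels and *Nkx6-1* below the lower one.

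In Smooth Muscle cells the stomach over esophagus ratio at E15 was 3.53 (3.16 to 3.93) for *Barx1*, 5.68 (4.45 to 7.32) for *Isl1*, 4.74 (3.60 to 6.20) for *Six2*, 1.15 (0.87 to 1.44) for *Hand2* and -3.73 (-4.40 to -3.12) for *Nkx6-1*. At E19 *Barx1* was at 5.75, over an esophageal level at background, *Hand2* at 1.27 and *Nkx6-1* at -2.99. *Isl1* was at 4.37 (2.81 to 6.66, from 258 against 2 UMIs), or 30.9-fold (8.47 to 257) as the ratio of CPM with no UMI added. *Six2* was at least 13.8-fold higher. *Hand2* thus differed less between regions in muscle than in Stromal cells before birth. The counts were 4 higher and 1 lower of 7 at E15 (background 6.68% and 3.92%) and at E19 (6.57% and 6.84%). In the pup, with 22 esophageal muscle cells, they were 3 higher and 1 lower of 6 (14.1% and 6.83%): *Barx1* at 3.33 (2.09 to 4.97), *Isl1* at 3.32 (1.42 to 6.38, from 96 against 1 UMI; 19.7-fold, 3.45 to 787, with no UMI added), *Six2* at least 2.60-fold higher, and *Meis2* lower at -1.41 (-1.89 to -0.91). These pup ratios compare different clusters, since 101 of 113 stomach cells belonged to cluster 11 and 19 of 22 esophageal cells to cluster 4. Within cluster 4 (12 against 19 cells), *Meis2* was at -0.52 (-1.23 to 0.16) and no longer past 2-fold. *Barx1* was at 5.05 (3.13 to 8.13, from 56 against 1 UMI) within that cluster. *Isl1* was at least 2.32-fold higher there (6 against 0 UMIs) and *Six2* at least 4.65-fold higher (12 against 0 UMIs), both under the 20-UMI minimum. With 1 UMI added to each sum, their log2 intervals were wide, at 0.06 to 8.52 for *Isl1* and 1.18 to 9.33 for *Six2*. Over all pup muscle cells, *Nkx6-1* had 16 UMIs in the esophagus against none in the stomach. That was at least 26.0-fold lower but under the 20-UMI minimum and not counted. The skeletal muscle genes, of which 2 of 5 were detected and *Mb*, *Myod1* and *Pax7* were at 0, summed to 344 CPM in E19 and 489 CPM in pup esophageal muscle and to at most 66.8 CPM in the other groups, and their part in these ratios was not tested.

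The GE-SCJ stood between the regions for some genes and on the stomach's side for others. Stomach over GE-SCJ in Stromal cells gave 0.67 for *Barx1*, 0.94 for *Isl1*, 2.27 (1.92 to 2.63) for *Six2*, 1.09 (0.84 to 1.34) for *Hand2* and -2.34 (-3.25 to -1.53) for *Nkx6-1* at E15. GE-SCJ over esophagus, which shares the GE-SCJ cells with that comparison and the esophageal cells with the one above, gave 2.48, 3.33, 1.35, 2.27 and -2.53 at the same stage. At E15 the larger step of *Barx1* and *Isl1* was therefore on the esophageal side of the junction, and that of *Six2* on the stomach side. The *Nkx6-1* ratios were of similar size at E15. At E19 the *Six2* steps were of similar size at 1.26 (0.98 to 1.54) and 1.24, and the *Nkx6-1* ratios were -1.63 and -3.27. Stomach Stromal levels of *Nkx6-1* overlapped those of immune cells at E15 and E19, so the sizes of its steps cannot be compared. Between stomach and GE-SCJ, 2 genes were higher and 1 lower at E15 (2.23% and 1.32% of all genes) and 1 and 1 at E19 (0.84% and 1.34%), and in the pup 2 of 6 were higher and 0 lower (4.24% and 2.66%), *Isl1* at 1.35 and *Six2* at 1.50. Between GE-SCJ and esophagus, 4 were higher and 1 lower at each of E15 (3.51% and 3.59%), E19 (6.7% and 3.37%) and pup (3.68% and 4.59%), the pup count including *Meis1* at 1.04.

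In muscle, stomach over GE-SCJ was past 2-fold for *Isl1* (1.54 at E15 and 1.26 at E19), *Six2* (2.58, 1.64 and, in the pup, 1.41) and *Nkx6-1* (-2.28 and -1.61), where 2.6%, 1.62% and 2.65% of all genes were higher and 2.59%, 3.09% and 2.32% lower. GE-SCJ over esophagus in muscle gave *Barx1* ratios of 3.09, 5.33 and 3.22 and *Nkx6-1* ratios of -1.45, -1.39 and -3.40. The *Barx1* ratio of 5.33, at E19, was over an esophageal level at background. *Hand2* was past 2-fold at E19 alone (1.04). The counts were 3 higher and 1 lower at E15 (4.98% and 3.29% of all genes), 4 and 1 at E19 (7.27% and 6.47%) and 2 and 1 in the pup (14.2% and 6.87%). The pup ratios over the esophagus again compare different clusters, with 95 of 119 GE-SCJ cells in cluster 11 and 19 of 22 esophageal cells in cluster 4.

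The authors' clusters, made from these same counts, divide the Stromal label by region. Cluster 1 held 204 and 678 of the prenatal esophageal cells, cluster 0 held 251 and 380 GE-SCJ and 215 and 528 stomach cells at E15 and E19, cluster 3 held prenatal cells of all regions, and cluster 9 most postnatal cells. Within cluster 3 at E15 (145 stomach against 136 esophageal cells) the ratios were 3.23 for *Barx1*, 3.45 for *Isl1*, 3.61 for *Six2*, 3.19 for *Hand2* and -4.14 for *Nkx6-1*. Within cluster 9 of the pup (60 against 149 cells) they were 4.07, 3.07, 3.44 and 2.22, and *Nkx6-1* was at least 11.8-fold lower. Within cluster 3 at E19 (169 against 50 cells) they were 2.77 for *Barx1*, 3.57 (1.99 to 5.87) for *Isl1*, 2.17 (1.00 to 3.65) for *Six2*, 1.94 (1.13 to 2.87) for *Hand2* and -3.65 (-5.11 to -2.38) for *Nkx6-1*, with 2 esophageal UMIs behind the *Isl1* ratio. The directions were thus the same within a cluster that holds cells of both regions. The sizes were not always kept, since at E19 all 5 ratios were nearer to 0 than over all Stromal cells, with *Hand2* at 1.94 against 3.64, and *Isl1* at E15 lay under the interval given over all Stromal cells. Inside the prenatal stroma, *Hand2* was higher in cluster 3 than in cluster 0, with 181 against 64.0 CPM in the stomach and 122 against 29.9 CPM in the GE-SCJ at E15.

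At the GE-SCJ, single muscle cells could be asked whether the esophageal gene *Nkx6-1* and the stomach gene *Barx1* were found in the same cells. At E19, *Barx1* was detected in 59.6% (44.3 to 73.6) of 47 muscle cells with a UMI of *Nkx6-1* and in 95.8% (91.1 to 98.4) of 143 cells without, and after thinning in 29.2% (12.6 to 51.1) and 72.7% (65.1 to 79.4). The level was 205 against 511 CPM, while the median depths were close at 11186 and 11932 UMIs. At E15 the shares were 82.1% (66.5 to 92.5) of 39 cells and 98.9% (94.1 to 100) of 92 cells, or 47.8% and 71.0% thinned, with 373 against 491 CPM. At own depth *Six2* ran the same way, in 4.26% against 31.5% of the E19 cells and 7.69% against 20.7% of the E15 cells, with overlapping intervals at E15. *Hand2* was found in most cells of both kinds at E19 (74.5% and 83.2%), and *Isl1* differed less (25.5% and 39.2%). In GE-SCJ Stromal cells *Barx1* was in 82.6% against 91.8% at E15 and 73.0% against 88.4% at E19, at own depth. In esophageal Stromal cells *Barx1* showed no difference after thinning, with 18.9% and 18.9% at E15 and 9.80% and 9.75% at E19. These thinned shares are not the measure given for GE-SCJ Stromal cells.

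**Figure D3:**
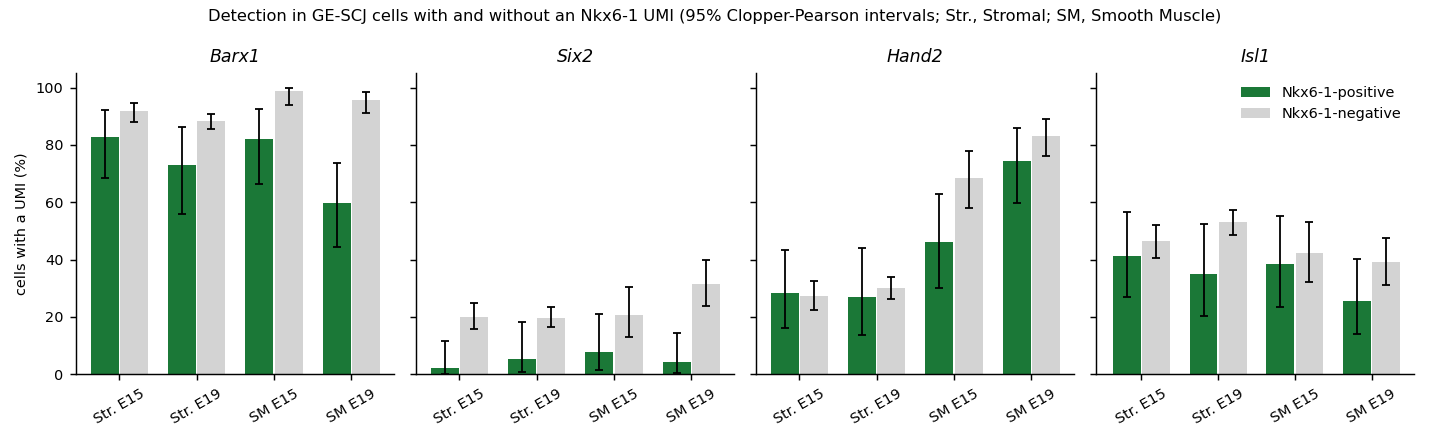
Share of GE-SCJ cells (percent, y axis) with a UMI of *Barx1*, *Six2*, *Hand2* or *Isl1* among cells with (green) and without (grey) a UMI of *Nkx6-1*, in Stromal and Smooth Muscle cells at E15 and E19; lines are exact 95% binomial intervals. At E19 in muscle the *Barx1* bars stood at 59.6% and 95.8% and the *Six2* bars at 4.26% and 31.5%.

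Smooth Muscle over Stromal cells separated *Hand2* and *Nkx6-1* from the other genes. *Hand2* was higher in muscle by a log2 ratio of 3.47 (2.95 to 4.01) at E15 and 4.41 (3.75 to 5.09) at E19 in the esophagus, 1.37 and 2.23 (2.01 to 2.45) in the GE-SCJ, and 1.27 and 2.04 in the stomach, but at -0.12 in the pup stomach. The ratio of 4.41 was over a Stromal level that overlapped background. *Nkx6-1* was higher in muscle of the GE-SCJ (1.82 and 2.68) and of the stomach (1.89 and 2.71). Both genes passed 2-fold in GE-SCJ and stomach at E15 and E19, 2 of 7 each, where 6.03%, 6.26%, 5.65% and 6.47% of all genes were higher in muscle and 10.6%, 13.1%, 11.7% and 16.3% lower. In the esophagus, 1 gene was higher and 1 lower at E15 (6.73% and 13.5%). The lower gene was *Isl1*, with 3.53 CPM in muscle and 10.2 CPM in Stromal cells, no higher than the 12.0 CPM of immune cells. At E19, 1 gene was higher and 2 lower (12.8% and 13.8%). These were *Six2* and *Barx1*, the latter lower in muscle by -1.90, from 4 muscle UMIs at background level. The GE-SCJ pup had 2 of 6 higher (7.45%, with 8.4% lower), *Hand2* at 1.30 and *Isl1* at 1.87, of which *Hand2* rested on cluster 4, with 55 of its 63 muscle UMIs in 24 cells there (389 CPM), while the 95 cluster 11 cells, at 18.7 CPM, lay below the 43.2 CPM of Stromal cells. The pup stomach had 1 of 6 lower (8.58%, with 6.34% higher), *Meis2* at -1.20. There the 101 muscle cells of cluster 11 had 149.7 CPM of *Meis2* and the 12 of cluster 4 had 346 CPM, against 414 CPM in Stromal cells. In the esophagus none of 3 genes passed in the pup (10.4% and 19.5%), and in the adult *Nkx6-1* was higher in muscle (1.58) and *Meis1* (-1.09) and *Meis2* (-1.30) lower (16.2% and 16.9%). Of the 30 adult esophageal muscle cells, 23 belonged to cluster 11 and 7 to cluster 4. The part of the clusters in these adult ratios was not tested.

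Between E15 and pup, in Stromal cells, *Barx1* was lower in the pup in the stomach (E15 over pup 1.09, 0.82 to 1.37) and in the esophagus (2.03, 1.13 to 3.11), as was *Isl1* in the GE-SCJ (1.29, 0.60 to 2.09). The stomach value of *Barx1* lay close to the 2-fold line and fell under it when CPM was averaged over cells and when shallow or mitochondrial cells were left out. Each was 1 gene past 2-fold in its region, where 12%, 13.9% and 14.1% of all genes were higher at E15 and 11.5%, 12.2% and 12.3% lower. These Stromal ratios compare different clusters. Cluster 9 held 60 of 78 stomach, 73 of 82 GE-SCJ and 149 of 151 esophageal pup cells, but no E15 Stromal cell. The part of the clusters in these Stromal ratios was not tested. In stomach muscle, *Hand2* (1.72, 1.27 to 2.19), *Meis2* (1.51, 1.21 to 1.83), *Six2* (1.02, 0.52 to 1.55) and *Nkx6-1* (at least 2.59-fold, 23 UMIs against 0) were higher at E15 than in the pup, 4 of 7 genes beside 14.1% of all genes, with 13.2% lower. In GE-SCJ muscle, *Nkx6-1* (2.33, 1.30 to 3.57) and *Meis2* (1.28) were higher at E15 and *Isl1* lower (-1.02), 2 and 1 of 7 beside 13.3% and 13.5% of all genes. Within cluster 4 neither *Meis2* (0.17, -0.15 to 0.52) nor *Isl1* (-0.24, -1.06 to 0.71) was past 2-fold there. The *Isl1* call was also lost under 3 other settings of the muscle cells and with Stromal and Smooth Muscle cells joined. *Nkx6-1* within cluster 4 was at 1.30 from 118 against 3 UMIs, with an interval of -0.09 to 3.20 that includes no difference. In esophageal muscle, 0 of 5 genes passed 2-fold from E15 to pup (13.3% and 13.7%), while from pup to adult *Meis1* (1.26) and *Meis2* (1.72) were higher in the pup (2 of 3 genes, beside 7.58% higher and 14% lower of all genes). The pup and adult cells compared there were mostly of different clusters, with 19 of 22 pup cells in cluster 4 and 23 of 30 adult cells in cluster 11. The part of the clusters in these 2 ratios was not tested.

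The pup muscle of stomach and GE-SCJ was mostly another cluster than the prenatal muscle. Of the pup cells, 101 of 113 in the stomach and 95 of 119 in the GE-SCJ belonged to cluster 11, and nearly all prenatal muscle to cluster 4. Cluster 11 had less *Acta2* (7427 against 13300 CPM) and *Actg2* (1493 against 8740 CPM) and more of the pericyte gene *Rgs5* (1702 against 43.7 CPM) and of *Dcn* (1134 against 114 CPM). The 4 pericyte markers, all detected in both groups, summed to 2132 CPM in pup and 155 CPM in E15 stomach muscle and to 934 and 149.5 CPM in the GE-SCJ, and the 6 fibroblast markers, all detected too, to 8699 against 2892 CPM and 7635 against 3284 CPM. In the pup stomach, *Hand2* stood at 214 CPM in the 12 cells of cluster 4 and 54.8 CPM in cluster 11, *Meis2* at 346 and 149.7 CPM, and *Isl1* at 71.5 and 189.8 CPM. In the GE-SCJ pup, *Hand2* stood at 389 and 18.7 CPM, *Meis2* at 559 and 161 CPM, and *Isl1* at 85.0 and 179.8 CPM. Within cluster 4 of the stomach, E15 over pup was 0.25 (-0.41 to 0.99) for *Hand2*, 0.55 (0.03 to 1.13) for *Meis2* and -0.11 (-0.91 to 0.82) for *Six2*, and *Isl1* alone passed 2-fold (1.45, 0.39 to 2.77). Within cluster 4 of the GE-SCJ, *Hand2* was lower at E15 than in the pup (-1.54, -1.97 to -1.09). *Hand2*, *Meis2* and *Six2* in stomach muscle were thus no longer past 2-fold between stages among cells of 1 cluster. *Nkx6-1*, with 23 UMIs at E15 against 0 in the 12 pup cells of cluster 4, was at 0.32 (-2.30 to 5.68) and not past 2-fold either.

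**Figure D4:**
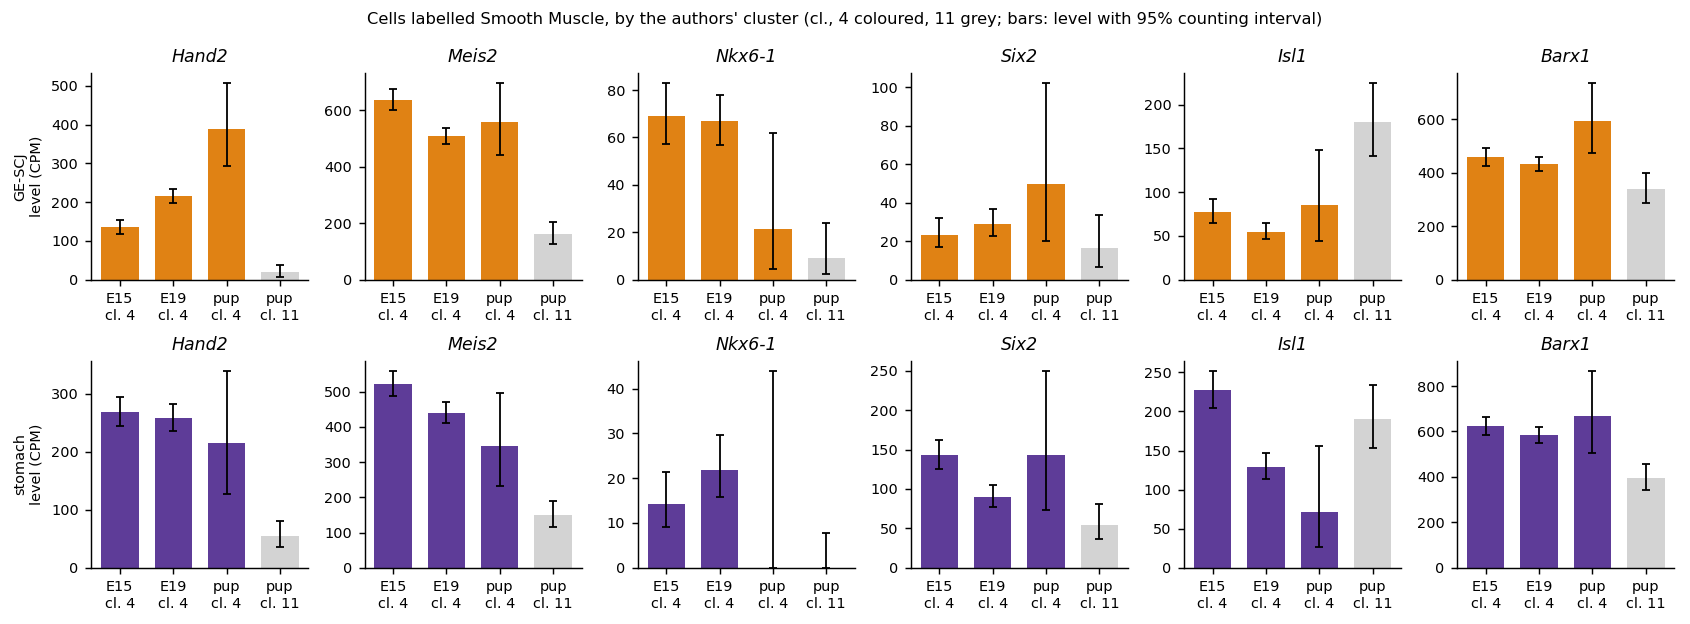
Levels (CPM, y axis) of *Hand2*, *Meis2*, *Nkx6-1*, *Six2*, *Isl1* and *Barx1* in Smooth Muscle cells of the GE-SCJ and the stomach, as bars from 0 with exact 95% counting intervals, for cluster 4 at E15, E19 and pup (coloured) and cluster 11 of the pup (grey). *Hand2* in the pup stood at 389 CPM in cluster 4 and 18.7 CPM in cluster 11 of the GE-SCJ.

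The mesothelial-like Stromal-2 label had at least 20 cells in 2 groups. In its 46 GE-SCJ cells at E19, *Barx1* stood at 269 CPM (226 to 318), *Isl1* at 111 CPM (84.1 to 144), *Meis1* at 203 CPM and *Meis2* at 177 CPM. In its 27 pup stomach cells they stood at 259.8 CPM (193 to 342), 66.2 CPM (35.3 to 113), 290 CPM and 224 CPM. *Nkx6-1* had no UMI in either group, and *Six2* had 1 UMI in the GE-SCJ group. Against Stromal cells of the same region and stage, *Six2* (1 against 148 UMIs) and *Nkx6-1* (0 against 58 UMIs) were lower in the GE-SCJ, 2 genes beside 11% of all genes (12.1% higher), and none passed 2-fold in the pup stomach (10.1% higher and 15.3% lower). The *Nkx6-1* call rests on the 1 UMI added to each sum, since the bound with 3 UMIs, at least 1.73-fold lower, is under 2-fold.

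Outside the mesenchyme, *Hand2* reached 542 CPM (518 to 566) in 419 cells labelled Neural, with a UMI in 81.9% of them (67.1% thinned, median depth 7900 UMIs) against 3.39% of immune cells, and between 262 and 642 CPM in every Neural group. *Isl1* was at 56.9 CPM in columnar epithelial cells, in 46.9% of cells at a median depth of 25118 UMIs but 13.3% after thinning, against 2.38% of thinned immune cells. Before birth, *Isl1* was higher in columnar cells with at least 3 UMIs of the endocrine genes *Chga* and *Neurod1*. It had 1193 CPM (949 to 1481) in 5 such stomach cells at E15, 2 of which held all its UMIs. At E19 it had 1063 CPM in 4 stomach cells and 348 CPM in 4 GE-SCJ cells. Prenatal cells with fewer had 43.7 to 61.7 CPM. In the pup, 3 cells of the stomach with at least 3 endocrine UMIs had 98.8 CPM (51.1 to 173), against 39.5 CPM in cells with fewer. In the GE-SCJ pup, 3 such cells had 8.17 CPM from 1 UMI, below the 78.7 CPM of cells with fewer. *Meis2* was also epithelial, with 413, 283, 256 and 30.5 CPM in esophageal squamous cells from E15 to adult and 315, 165 and 79.5 CPM in stomach columnar cells from E15 to pup. *Barx1*, *Six2* and *Nkx6-1* had their highest levels in the mesenchymal labels.

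**Figure D5:**
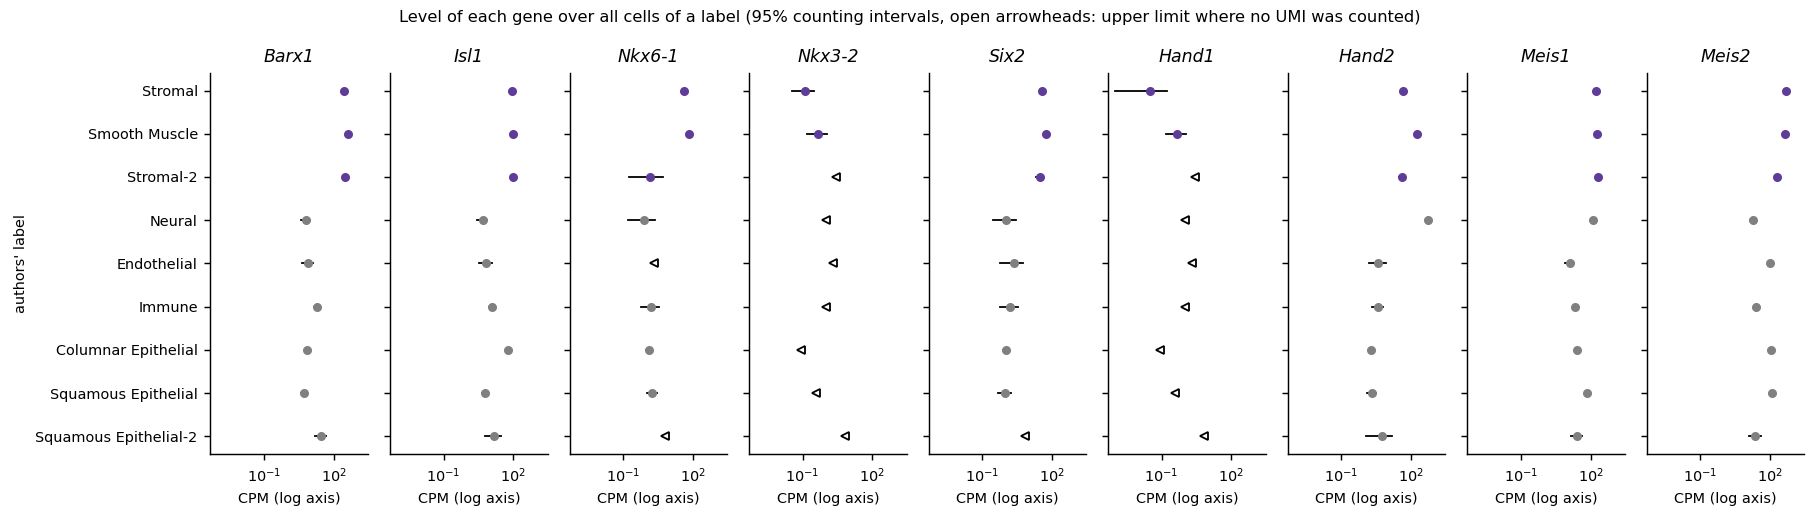
Levels (CPM, log scale on the x axis) of the 9 genes in each of the 9 labels of the authors, over all regions and stages, with exact 95% counting intervals; open arrowheads mark the upper limit where a label had no UMI. *Hand2* was highest in Neural cells at 542 CPM, and *Barx1* in Smooth Muscle cells at 421 CPM.

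Cells of the stomach with a UMI of *Six2* differed from those without in further genes. With Stromal and Smooth Muscle cells joined (300 positive and 171 negative cells at E15, 372 and 489 at E19, 52 and 139 in the pup), the calmodulin regulator gene *Pcp4* stood at 217 against 70.4 CPM, 419 against 148 CPM and 79.5 against 15.7 CPM. *Rprm*, *Syndig1*, *Eppk1* and *Fancd2* completed the 5 genes most steadily higher. The growth factor gene *Nrg1* was lower in positive cells at each stage, with 19.6 against 57.5 CPM, 27.0 against 75.0 CPM and 3.31 against 47.0 CPM. The pup value of 3.31 CPM rests on very few UMIs, from 52 cells of low depth. *Chga*, *Dll1*, *Itga4* and *Lrrtm3* were lower too. *Chga* is an endocrine gene, at 15.7 CPM over all Stromal cells, and the part of free RNA in its difference was not tested. Muscle cells made up 28.7% of positive and 14.6% of negative cells at E15. Positive cells were deeper, with medians of 11020 against 10107 UMIs at E15, 10560 against 8656 at E19 and 5268.5 against 4655 in the pup. In Stromal cells alone, *Nrg1* (22.3 against 63.2 CPM and 35.5 against 88.6 CPM at E15 and E19) and *Adamdec1* (60.5 against 163 CPM and 171 against 330.4 CPM) were still lower.

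For *Isl1* in the stomach (354 positive and 117 negative cells at E15), the genes most steadily higher were *Hist1h1b*, *Hist1h2ab*, *Iqgap3*, *C2cd2* and *Hist2h2ac*, 3 of them histone genes, and positive cells were deeper, with a median of 11625.5 against 7884 UMIs. The BMP and activin antagonist gene *Fst* was lower, with 71.2 against 137 CPM at E15 and 33.4 against 72.5 CPM at E19. For *Nkx6-1* in the esophagus (274 positive and 166 negative cells at E15), *Pcp4* (133 against 41.6 CPM), *Myh11* (1165 against 373 CPM), *Hspb6*, *Synpo2* and *Rgs2* were higher, and muscle cells made up 27.7% against 10.2%. In esophageal Stromal cells alone these muscle genes no longer led the list, which was *Hist1h4d*, *Espl1*, *Hist1h1a*, *Pcbp3* and *Brca1*. No pup stomach cell held *Nkx6-1*, *Nkx3-2* or *Hand1*, so the same comparison over 3 stages could not be made for them.

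Genes with the most similar pattern were ranked by Pearson's r of log2(CPM + 10) over 55 groups of label, region and stage with at least 20 cells, among 14758 genes. The groups come from 1 library and differ in depth, and r is given without a test. *Barx1* was closest to *Six2* (0.894), *Hoxb5os* (0.861) and *Kcns3* (0.856). Genes close to *Nkx6-1* included *Tbx5* (0.899) and *Foxc1* (0.858), which are both transcription factor genes. *Isl1* was closest to *Ghr* (0.779), *Barx1* (0.760) and *Six2* (0.731), and *Six2*, after *Barx1*, to *Agtr1b* (0.847) and the growth factor gene *Fgf10* (0.838). *Hand2* was closest to its antisense neighbour *Hand2os1* (0.949), *Gm34030* (0.934) and *5033428I22Rik* (0.919). *Meis1* was closest to *Fzd2* (0.869), *Irak1bp1* (0.857) and *Ssbp2* (0.852), and *Meis2* to *Farp1* (0.806), *Ghr* (0.800) and *Plagl1* (0.794). These values of *Meis1* and *Meis2* were lower within the mesenchyme, where over the 20 Stromal and Smooth Muscle groups r was 0.185 for *Fzd2*, -0.33 for *Irak1bp1*, 0.237 for *Ssbp2*, -0.0883 for *Farp1*, 0.367 for *Ghr* and 0.445 for *Plagl1*. Over those 20 groups, the closest gene was *Isl1* for *Barx1* (0.920), *Foxc1* for *Nkx6-1* (0.907) and *Khdrbs2* for *Six2* (0.931).

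Related genes were counted in the same stomach over esophagus comparison at E15, E19 and pup. Of 9 genes for PBX, PKNOX, TGIF and MEIS3 proteins, which bind DNA with homeodomain partners, 1 of 8 tested was higher in the Stromal stomach at E15 (*Pbx3*, 1.21) and none of 6 passed 2-fold in the pup. Among 5 genes for partners of Hand proteins, *Twist2* was lower in the Stromal stomach at all 3 stages (-1.24, -1.52 and -1.18), joined by *Twist1* at E19 (-1.26), and none was higher in Stromal cells. In stomach muscle, *Twist2* was lower at E15 and *Twist1* at E19, and *Tcf3* was higher in the pup. Of 3 genes for cofactors of LIM proteins such as ISL1, *Ldb2* was higher in stomach muscle at E15 (1.92) and E19 (1.46) and *Lmo4* at E15 (1.46), while in Stromal cells *Ldb2* alone passed 2-fold, in the pup (1.01). Among paralogs, *Isl2* was at least 12.0-fold higher in Stromal cells of the E15 stomach (36 UMIs against 0) and at 2.48 at E19, and *Six4* was lower at E15 (-2.50).

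Of 11 genes of stomach and pylorus mesenchyme, 4 of 9 tested were higher in Stromal cells of the stomach at E15 and 1 was lower, with *Sfrp1* (1.71), *Grem1* (2.46), *Nr2f1* (1.00) and *Nkx2-5* (at least 7.98-fold) higher and *Gata6* (-1.27) lower. At E19, 4 of 8 were higher, *Sfrp2* (1.87), *Grem1* (2.62), *Bmp4* (1.69) and *Nr2f1* (1.10), and in the pup 3 of 7 were higher and 1 was lower, *Grem1* (2.95), *Bmp4* (1.54), *Nr2f1* (1.74) and *Gata6* (-1.91). Over all genes, 4.45%, 6.46% and 5.48% were higher and 3.83%, 3.9% and 3.94% lower at E15, E19 and pup. In muscle the list ran both ways, with 2 higher and 2 lower of 8 at E15, 3 and 3 of 8 at E19 and 3 and 1 of 7 in the pup, beside 6.68%, 6.57% and 14.1% of all genes higher and 3.92%, 6.84% and 6.83% lower. At E19 *Grem1* (-1.75) and *Nr2f2* (-1.13) were lower in stomach muscle and *Nr2f1* (1.22) higher, and *Gata6* was higher from 31 against 2 UMIs. *Sfrp1* and *Sfrp2* encode secreted WNT inhibitors. In muscle these genes ran in opposite directions, with *Sfrp1* at 1.18, 1.15 and 2.09 and *Sfrp2* at -3.55, -1.87 and -1.97 at E15, E19 and pup.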

How the data were processed

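UMIs were counted per cell in 1 pooled 10x Genomics 3′ v3.1 CellPlex library, of which 7808 cells were kept by the authors. For these UMI counts the authors ran Cell Ranger multi 6.1.1 on mm10 (GRCm38), and they deposited the counts without normalization, together with the percent of mitochondrial UMIs, the cluster, the label and the region and stage of each cell. Doublets were removed only by the authors' limits on genes and UMIs, and no per-sample column was left unused (0). The 9 genes and the lists of related genes and markers were chosen with earlier results of these data known. Counts were summed per label, region and stage, and groups under 20 cells got no ratio. Clopper-Pearson intervals at 95% go with shares, log2 ratios have exact intervals conditional on both counts, and a group with no UMI is compared at 3 counts. Thinning to 3000 UMIs used seed 1. The text names the 9 genes, the 3 genes most like each with at least 200 UMIs, the 5 genes with the largest smallest ratio over 3 stages in positive cells, and related genes past 2-fold. A few genes that this rule picked are not reported here. Ratios and intervals were tested on simulated data. Alternatives changed the cells, the library size, the UMI added, the minimum of UMIs, the labels joined and the likeness measure. Python 3.11.15, numpy 2.4.6, scipy 1.17.1 and pandas 2.3.3 were used, with matplotlib 3.10.9 for figures.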

Additional observations from a re-analysis of the deposited data

How the results depend on the processing

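Of 206 counts of genes past 2-fold under the alternatives, 186 stayed within 1.5 times the reported count, and of 669 log2 ratios 610 stayed inside the interval of the reported ratio, 57 left it and 2 that were past 2-fold changed sign. With at least 100 UMIs over both groups, fewer genes could be tested, and stomach over esophagus in the pup gave 1 higher and 0 lower in Stromal cells (reported 4 and 1) and 1 higher in muscle (reported 3). With Stromal and Smooth Muscle cells joined, E15 over pup gave 2 higher in the stomach, 1 higher in the esophagus and 1 higher and 0 lower in the GE-SCJ, and *Isl1* in the GE-SCJ went from 1.29 to -0.18. For E15 over pup in stomach Stromal cells, the single higher gene was lost (0) when CPM was averaged over cells and when cells under 2000 UMIs or over 10% mitochondrial UMIs were left out. That is a crossing of the 2-fold line by *Barx1*, since the latter setting moved 0 of 80 log2 ratios outside their intervals. For esophageal muscle, where 0 were reported higher, the mean of cells gave 1 and dropping the 1% of cells richest in the gene gave 2. For GE-SCJ muscle the single lower gene, *Isl1*, was lost (0) with the mean of cells, with a library size without mitochondrial, ribosomal protein and hemoglobin genes, and without cells holding another class's marker. Keeping cells of 1 cluster, an alternative chosen after seeing the data, gave 0 lower for stomach over esophagus in pup muscle and, for E15 over pup in muscle, 2 higher in the esophagus, 1 higher and 2 lower in the GE-SCJ and 1 higher in the stomach, where *Six2* went from 1.02 to -0.11. Over Stromal and Smooth Muscle groups alone, r became -0.33 for *Irak1bp1* with *Meis1* (0.857 over all groups) and -0.0883 for *Farp1* with *Meis2* (0.806). The causes were not tested except where fewer genes or cells entered. No paired analysis was possible because each region and stage is 1 pooled sample. The shallow pup groups and the 22 pup and 30 adult esophageal muscle cells limit low levels most, and no interval covers differences between mice.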

Other observations

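The adult GE-SCJ held 15 Stromal and 16 Smooth Muscle cells, too few for a ratio. Their *Barx1* stood at 137 and 262 CPM, *Isl1* at 145 and 122 CPM, and *Nkx6-1* at 25.6 and 103 CPM. The fetal growth-related gene *H19* stood at 1698 and 1226 CPM in these cells, against 179.5 and 58.3 CPM in adult esophageal Stromal and Smooth Muscle cells. Of the 15 Stromal cells, 7 belonged to the mostly prenatal cluster 0 and 6 to the postnatal cluster 9, and of the 16 Smooth Muscle cells 8 belonged to the mostly prenatal cluster 4 and 8 to cluster 11. Since their *H19* levels are those of prenatal and pup cells, the levels of *Barx1*, *Isl1* and *Nkx6-1* can be read as those of cells tagged adult, and whether the cells are adult was not tested.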
